A study of Ovis aries with 19 samples.

Results

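The genes of glycolysis and of the pyruvate dehydrogenase complex were followed in RNA sequencing libraries from the liver and muscle of female sheep (Ovis aries). The set was given as 33 gene symbols, and a gene counted as a member when its mean normalized read count was at least 10 in liver or in muscle. Of the 33, 32 passed, out of 14909 gene identifiers that passed the same minimum and 28524 listed in all. The gene left out was ALDOC, an aldolase isoform, with a mean of 4.24 in liver and 3.39 in muscle, and the member nearest to the minimum was PFKP, with 28.6 and 41.0. In liver 30 of the 33 had a mean of at least 10, the others being HK2, PGAM2 and ALDOC, and in muscle 31 did, the others being PKLR and ALDOC.

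Glycolysis splits glucose into pyruvate in the cytosol. Hexokinases trap glucose, phosphofructokinase commits it to the pathway, and the enzymes from aldolase to pyruvate kinase carry the carbon down to pyruvate, which lactate dehydrogenase interconverts with lactate. The pyruvate dehydrogenase complex in mitochondria turns pyruvate into acetyl-CoA; its kinases (PDK) switch the complex off and its phosphatases (PDP) switch it back on. Several steps have tissue isoforms, and skeletal muscle is known for high glycolytic capacity, while ruminant liver mainly makes glucose rather than burning it.

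The labels give 10 female sheep, 5 controls and 5 with prenatal testosterone treatment (written prenatal T-treatment), with 9 sheep sampled in both tissues. Liver libraries came from 4 control sheep (numbers 98, 131, 179 and 201) and 5 treated sheep (48, 63, 185, 233 and 255), and muscle libraries from the same sheep plus control sheep 132. The dose, the days of treatment, the age at sampling and the muscle taken are not given in the sources used here. Within a tissue each library is 1 sheep, so the p-values of treatment there measure the spread between animals. The main fits across tissues took the 19 libraries as independent, although 9 sheep gave both tissues. An alternative fit entered sheep as a block.

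Liver libraries held 10236610 to 16046301 reads assigned to genes and muscle libraries 8455563 to 14331578. ALB, the main hepatocyte transcript, was at least 112956 in every liver library and at most 16.2 in any muscle library. ACTA1, skeletal muscle actin, was at least 154279 in every muscle library and at most 9.12 in any liver library, so every library carried the defining transcript of its labelled tissue. Values are normalized read counts, scaled within each tissue and not for transcript length, so they are compared between libraries for 1 gene and not between genes. In bulk tissue, fewer cells of a type and less RNA per cell cannot be told apart. GAPDH, LDHA, PGK1, PGAM1, ENO1, PKM and TPI1 have near-identical copies in mammalian genomes, and how reads shared with such copies were counted is not given in the sources used here, so their levels are uncertain to that extent.

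The first comparison asked which isoform each tissue carried. Muscle was higher than liver for 25 of the 32 members and lower for 6, at an adjusted p under 0.05 (limma on log2(value + 1), Benjamini-Hochberg over all genes, reads rescaled over all 19 libraries). Over all 14909 genes, 38.5% were called higher in muscle and 40.7% higher in liver. The median log2 difference of the members was 2.49, and that of all genes tested was -0.04. The 6 members higher in liver were PFKL, PGAM1, ENO1, PKLR, LDHB and PDP2, and PFKP was not called. In 23 of the 32 the ranges of the 9 liver and the 10 muscle libraries were apart. The share of all genes with tissue ranges apart was not computed, so this count does not set the members off from other genes.

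**Figure D1:**
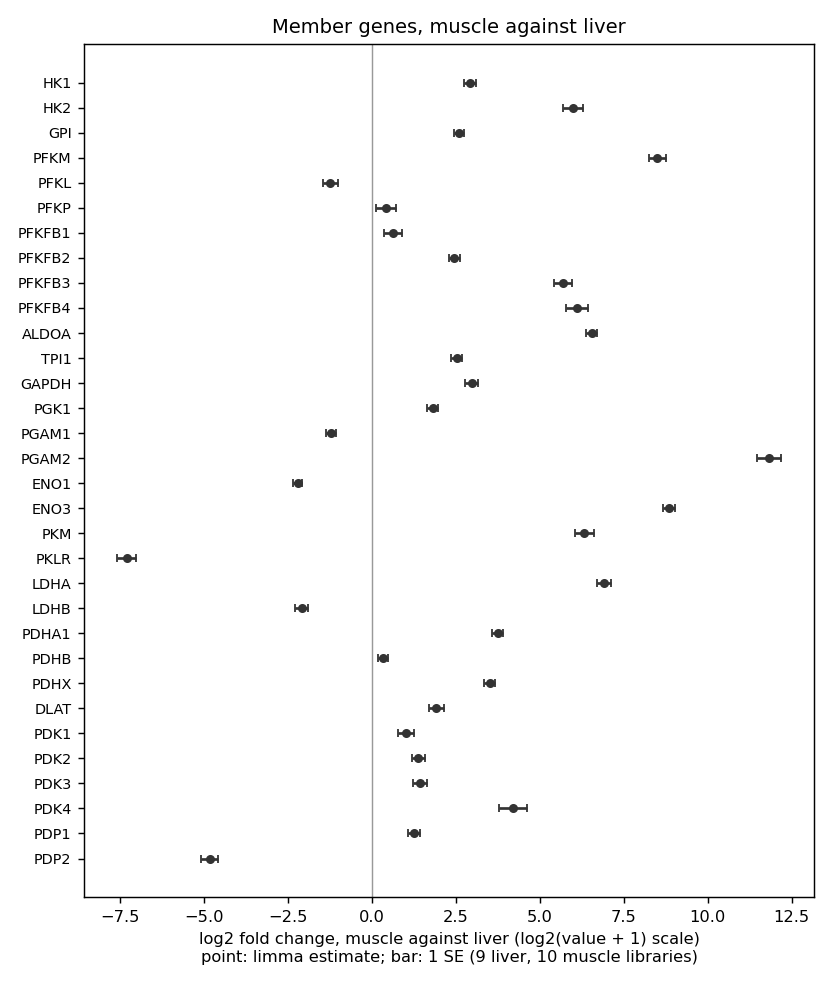
Log2 fold change of each member gene, muscle against liver, on the log2(value + 1) scale (x axis), with the genes in pathway order (y axis). Points are limma estimates and bars are 1 SE over 9 liver and 10 muscle libraries; PGAM2 lies farthest to the right at 11.84 and PKLR farthest to the left at -7.30.

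At the head of the pathway, the hexokinases HK1 and HK2 were both higher in muscle. HK1 was 29.9 to 81.5 in liver and 387 to 608 in muscle, a log2 difference of 2.92 ± 0.18 (SE). HK2, the insulin-responsive form, was at most 3.87 in liver, where all 9 libraries together held 17 reads, and 75.3 to 320 in muscle. Its log2 difference was 5.98 ± 0.30. GPI, glucose-6-phosphate isomerase, was 2.59 ± 0.15 higher in muscle on the same scale.

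Phosphofructokinase showed an exchange of isoforms. PFKM, the muscle-type subunit, had a lowest, median and highest value of 49.98, 59.9 and 268 in liver and of 21312, 32184 and 51837 in muscle. PFKL, the liver-type subunit, had 153, 243 and 566 in liver and 103, 134 and 202 in muscle. The log2 difference was 8.51 ± 0.26 for PFKM and -1.23 ± 0.21 for PFKL (limma adjusted p = 2e-05), and the tissue ranges of PFKL overlapped while those of PFKM did not. PFKP, the platelet-type subunit, differed by 0.42 ± 0.31 (limma adjusted p = 0.21). With values scaled to each library's total reads alone, PFKP was called higher in muscle (0.47, limma adjusted p = 0.0486), a scaling that also moved the median of all genes to 0.20.

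The 4 bifunctional enzymes that make and remove fructose 2,6-bisphosphate, the activator of phosphofructokinase, were all higher in muscle, by very unequal amounts. PFKFB4 differed by 6.11 ± 0.34, PFKFB2, the heart-type form, by 2.46 ± 0.17, and PFKFB1, the form first described in liver and muscle, by 0.63 ± 0.27 on the log2 scale. PFKFB3, the inducible form, had a lowest, median and highest value of 79.1, 209 and 412 in liver and of 4802, 12197 and 17600 in muscle, a difference of 5.69 ± 0.27. PFKFB1 stood at 108, 451 and 899 in liver and at 442, 778 and 906 in muscle, so its tissue ranges overlapped. Its call (limma adjusted p = 0.0354) was lost in edgeR (adjusted p = 0.0658) and DESeq2 (adjusted p = 0.0717).

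Every member from aldolase to phosphoglycerate kinase was higher in muscle. ALDOA, which cleaves fructose 1,6-bisphosphate, differed by 6.55 ± 0.17 on the log2 scale, GAPDH by 2.97 ± 0.20, TPI1 by 2.53 ± 0.16 and PGK1, the first step that yields ATP, by 1.81 ± 0.16. The next 3 steps, the mutase, enolase and pyruvate kinase, each held a member higher in liver beside one higher in muscle.

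PGAM2, the muscle phosphoglycerate mutase, had a lowest, median and highest value of 0, 3.09 and 8.56 in liver (26 reads over all 9 libraries) and of 6071, 13259 and 18535 in muscle. PGAM1, the widely expressed mutase, had 492, 697 and 956 in liver and 253, 346 and 452 in muscle. ENO3, the muscle enolase, had 38.1, 50.3 and 69.5 in liver and 15214, 31686 and 39554 in muscle. For ENO1, the widely expressed enolase, the order was the opposite, with 2217, 2960 and 3833 in liver and 527, 757 and 880 in muscle. The tissue ranges of all 4 were apart, with log2 differences of 11.84 ± 0.35 for PGAM2, -1.22 ± 0.14 for PGAM1, 8.84 ± 0.18 for ENO3 and -2.21 ± 0.14 for ENO1.

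Pyruvate kinase made the same exchange. PKLR, the liver and red cell gene, had a lowest, median and highest value of 187, 263 and 545 in liver and of 0, 1.05 and 3.25 in muscle, where 14 reads were counted over 10 libraries. PKM, the muscle and widely expressed gene, had 87.9, 130 and 223 in liver and 4224, 16402 and 26365 in muscle. The log2 differences were -7.30 ± 0.28 and 6.33 ± 0.28.

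The lactate dehydrogenase subunits also parted by tissue. LDHA, the muscle-type subunit, had a lowest, median and highest value of 96.4, 180 and 278 in liver and of 11160, 25985 and 34670 in muscle, and LDHB, the heart-type subunit, had 1860, 4769 and 7665 in liver and 754, 1151 and 1798 in muscle. Their log2 differences were 6.92 ± 0.20 and -2.09 ± 0.21, and neither gene's tissue ranges overlapped.

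The pyruvate dehydrogenase subunits were unequal between tissues although they build 1 complex. PDHA1, the E1 alpha subunit that the kinases phosphorylate, was 3.75 ± 0.16 higher in muscle on the log2 scale, and its E1 beta partner PDHB 0.34 ± 0.15. PDHX, the E3-binding protein, was 3.51 ± 0.16 higher and DLAT, the E2 core, 1.92 ± 0.22. PDHB spanned 1416 to 3232 over the livers and 2197 to 4383 over the muscles, and its call (limma adjusted p = 0.0393) was lost in edgeR (adjusted p = 0.0535) and DESeq2 (adjusted p = 0.0517).

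All 4 kinases were higher in muscle: PDK4, the kinase induced by fasting, by 4.19 ± 0.42, PDK3 by 1.43 ± 0.20, PDK2 by 1.38 ± 0.19 and PDK1 by 1.03 ± 0.24. PDK4 also had the widest spread among the 31 muscle members, its highest library 17.7 times its lowest, against 1.57 times for HK1, the narrowest. The 2 phosphatases parted by tissue. PDP1 had a lowest, median and highest value of 149, 244 and 454 in liver and of 474, 647 and 920 in muscle, while PDP2 had 301, 412 and 584 in liver and 4.06, 15.1 and 28.7 in muscle. PDP1 was 1.25 ± 0.18 higher in muscle and PDP2 differed by -4.83 ± 0.25 on the log2 scale.

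Ratios of 2 isoforms were also taken inside each library, from values + 1, which leaves the scaling of the library almost without effect except where a gene is near 0. Of 12 isoform pairs, the ratios of the liver and the muscle libraries were wholly apart for 9. One of the 9 is ALDOC/ALDOA, which holds the excluded ALDOC near 0, and among the 11 pairs of members 8 were apart. The log2 ratio PFKM/PFKL spanned -3.38 to 0.25 over the livers and 7.02 to 8.77 over the muscles, and PKLR/PKM -0.07 to 2.13 and -14.15 to -10.03. LDHB/LDHA spanned 3.16 to 5.50 over the livers and -5.34 to -2.99 over the muscles. Across these 3 pairs the tissues therefore sat at opposite ends, whichever treatment group a library came from. HK1/HK2 was apart only with the small constant, at 3.10 to 6.22 in liver and 0.82 to 2.78 in muscle, since HK2 had 0 to 4 reads per liver library. With 10 added instead of 1 it was 1.67 to 3.06 and 0.80 to 2.64, which overlapped, and its mean shift went from -3.07 to -1.16. The other 8 pairs stayed apart with 10 added. PFKP/PFKL, PDK4/PDK2 and PDK1/PDK2 overlapped between tissues.

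**Figure D2:**
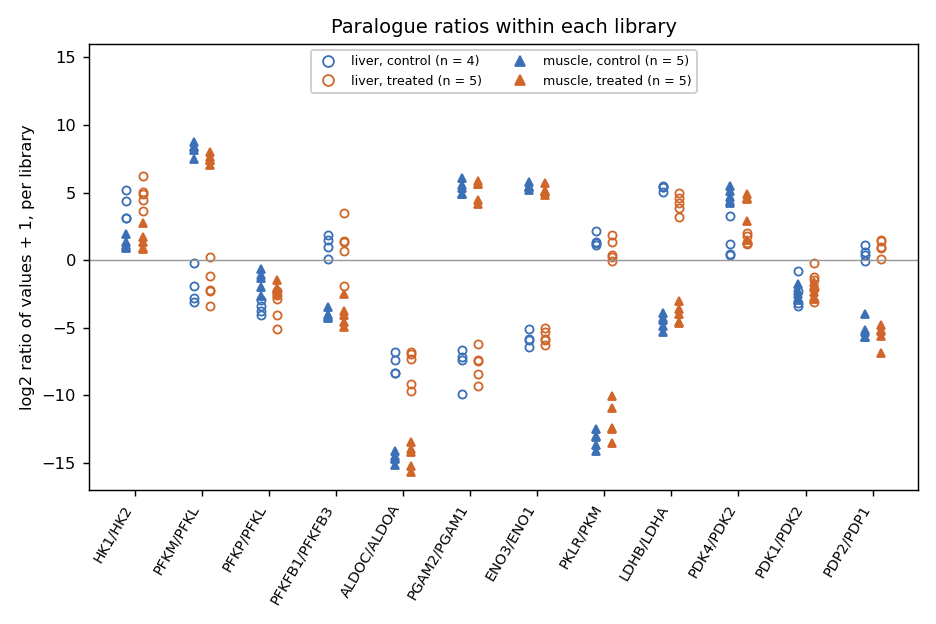
Log2 ratio of 2 isoforms of the same step, computed from values + 1 inside each library (y axis), for 12 pairs (x axis). Open circles are liver and filled triangles muscle libraries, in blue for control and orange for treated sheep; the tissues are apart for 9 pairs, and the treated liver libraries of LDHB/LDHA (3.16 to 4.98) all lie below the liver controls (5.03 to 5.50).

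The second comparison asked whether muscle of prenatally treated sheep differed from control muscle. None of the 31 members tested passed an adjusted p under 0.05 in limma, edgeR or DESeq2 (5 control and 5 treated libraries). Over all 12966 genes, limma called 0.00771%, edgeR 0.00771% and DESeq2 1.94%. At an unadjusted p under 0.05 limma marked 10 members, 8 with a lower treated mean (PDHA1, PGK1, PFKFB4, PDHB, GPI, LDHA, DLAT and PKM) and 2 with a higher one (PDK3 and PFKL). The background at that level was 7% of all genes lower and 7.37% higher. edgeR marked 7 and DESeq2 10 of the members, beside 14.2% and 14.9% of all genes.

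The estimates of the members leaned to one side. Of the 31, 27 lay below 0, against 51.6% of all genes, and the members' median log2 fold change was -0.35 against -0.01 for all genes. The ranges of the control and treated libraries overlapped for all 31, where 1.53% of all genes had treated libraries wholly below the controls and 1.76% wholly above. For 7 members all 5 treated libraries were below the control mean (PFKFB4, PGK1, PGAM2, LDHA, PDHA1, PDHB and DLAT), and for 2, PFKL and PDK3, all 5 were above it. Over all genes tested in muscle, 12.1% met the first rule and 9.77% the second.

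**Figure D3:**
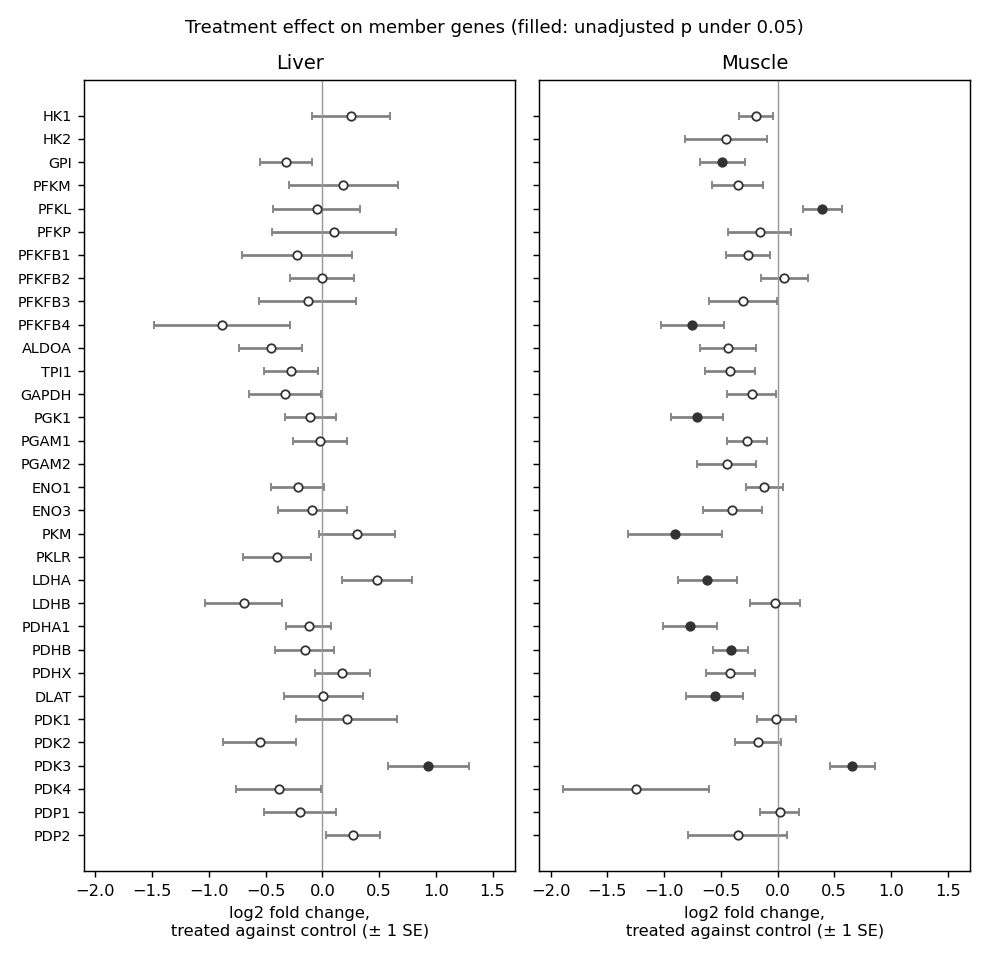
Log2 fold change of each member, treated against control (x axis), in liver and muscle, with the genes in pathway order (y axis). Points are limma estimates with bars of 1 SE, filled where the unadjusted p was under 0.05 (1 gene in liver, 10 in muscle); no gene passed after adjustment, and 27 of 31 muscle estimates lie below 0.

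Upper glycolysis gave 6 of 7 estimates below 0 in muscle, where 51.6% of all genes had one. GPI averaged 5791 ± 835 in control muscle and 4265 ± 1350 with treatment (SD, n = 5 each), a log2 fold change of -0.49 ± 0.20 (limma adjusted p = 0.301). The exception was PFKL, the liver-type subunit, with 124 ± 25.0 in control and 163 ± 29.7 in treated libraries and a log2 fold change of 0.39 ± 0.17 (limma adjusted p = 0.325). PFKM, the muscle-type subunit, had 37635 ± 8333 and 29942 ± 9036 (limma adjusted p = 0.504).

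Among the bifunctional enzymes, PFKFB4 was 16072, 8736, 11366, 8438 and 9209 in control sheep 98, 131, 132, 179 and 201. In treated sheep 48, 63, 185, 233 and 255 it was 3463, 9435, 8420, 7750 and 4326. All 5 treated values were under the control mean of 10764, but sheep 63 exceeded 3 of the controls. The log2 fold change was -0.75 ± 0.28 (limma adjusted p = 0.263).

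All 8 members of lower glycolysis tested in muscle, from TPI1 to PKM, had estimates below 0. Of these, 2 (PGK1 and PKM) had an unadjusted p under 0.05. The shares of all genes were 51.6% below 0 and 7% lower at that level. PGK1 was 8304, 9303, 8862, 9742 and 6293 in control muscle (sheep 98, 131, 132, 179, 201) and 4114, 8151, 5453, 6254 and 3146 in treated muscle (48, 63, 185, 233, 255). Its means were 8501 ± 1344 and 5424 ± 1939, a log2 fold change of -0.71 ± 0.23 (limma adjusted p = 0.206). Control sheep 201 lay inside the treated range, and the other 4 controls lay above it. For PKM the control values were 26365, 24342, 17470, 18161 and 8769 and the treated values 4224, 21248, 9918, 15333 and 5688, in the same order of sheep. The log2 fold change of PKM was -0.90 ± 0.41 (limma adjusted p = 0.343), with controls and treated sheep interleaved.

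LDHA, which regenerates NAD+ for the pathway in working muscle, was 30142, 34670, 30618, 31027 and 18458 in control muscle and 11160, 25981, 19550, 25988 and 14614 in treated muscle, again by sheep number. The other 4 controls exceeded every treated library and control 201 did not. The log2 fold change was -0.62 ± 0.26 (limma adjusted p = 0.308). LDHB had means of 1247 ± 396 and 1202 ± 284, a log2 fold change of -0.02 ± 0.22.

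All 4 pyruvate dehydrogenase subunits had estimates below 0 in muscle, 3 of them at an unadjusted p under 0.05. Of all genes, 51.6% had estimates below 0 and 7% were lower at that level. The subunits were read from the same libraries, so the 4 estimates are not independent of each other. PDHA1 was 13930, 14627, 7535, 9898 and 8632 in control muscle and 4207, 8943, 5048, 7413 and 6423 in treated muscle. Its mean of 10924 ± 3183 stood against 6407 ± 1879, a log2 fold change of -0.77 ± 0.24 (limma adjusted p = 0.196). The DESeq2 adjusted p was 0.0567, and treated sheep 63 lay above the 2 lowest controls.

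PDHB was 3592, 4383, 2665, 3419 and 3012 in control and 2346, 3294, 2197, 2642 and 2291 in treated muscle, a log2 fold change of -0.41 ± 0.16 (limma adjusted p = 0.266). PDHX was 3043, 2728, 1904, 2387 and 2012 in control and 2015, 2440, 1016, 2118 and 1689 in treated muscle, -0.42 ± 0.22 (limma adjusted p = 0.403). DLAT had means of 2202 ± 710 and 1504 ± 518, -0.56 ± 0.25 (limma adjusted p = 0.334). For each subunit treated sheep 63 was the highest treated library and overlapped the controls.

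The kinases did not share 1 direction. PDK3, one of the inhibiting kinases, was 135, 184, 208, 115 and 160 in control muscle and 183, 244, 261, 223 and 362 in treated muscle, with all 5 treated libraries above the control mean and treated 48 inside the control range. Its mean was 160 ± 37.2 in control and 255 ± 66.8 in treated libraries, a log2 fold change of 0.66 ± 0.20 (limma adjusted p = 0.195). PDK1 and PDK2 had log2 fold changes of -0.01 ± 0.17 and -0.17 ± 0.20.

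PDK4 had the largest limma estimate among the 31 muscle members, and 2 libraries carried it. Control muscle held 59867, 57837, 87014, 63569 and 82126, and treated sheep 63, 185 and 233 held 82430, 66203 and 60897, within the control range. Treated sheep 48 and 255 held 12616 and 4922. The log2 fold change over all 10 libraries was -1.25 ± 0.64 (limma adjusted p = 0.398) and without those 2 libraries 0.0039. Count models gave smaller estimates, -0.62 in edgeR and -0.62 in DESeq2, under those of PDHA1 in size (-0.76 and -0.76), and limma without sheep 255 alone gave -0.61. The phosphatases PDP1 and PDP2 had log2 fold changes of 0.02 ± 0.17 and -0.35 ± 0.44.

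**Figure D4:**
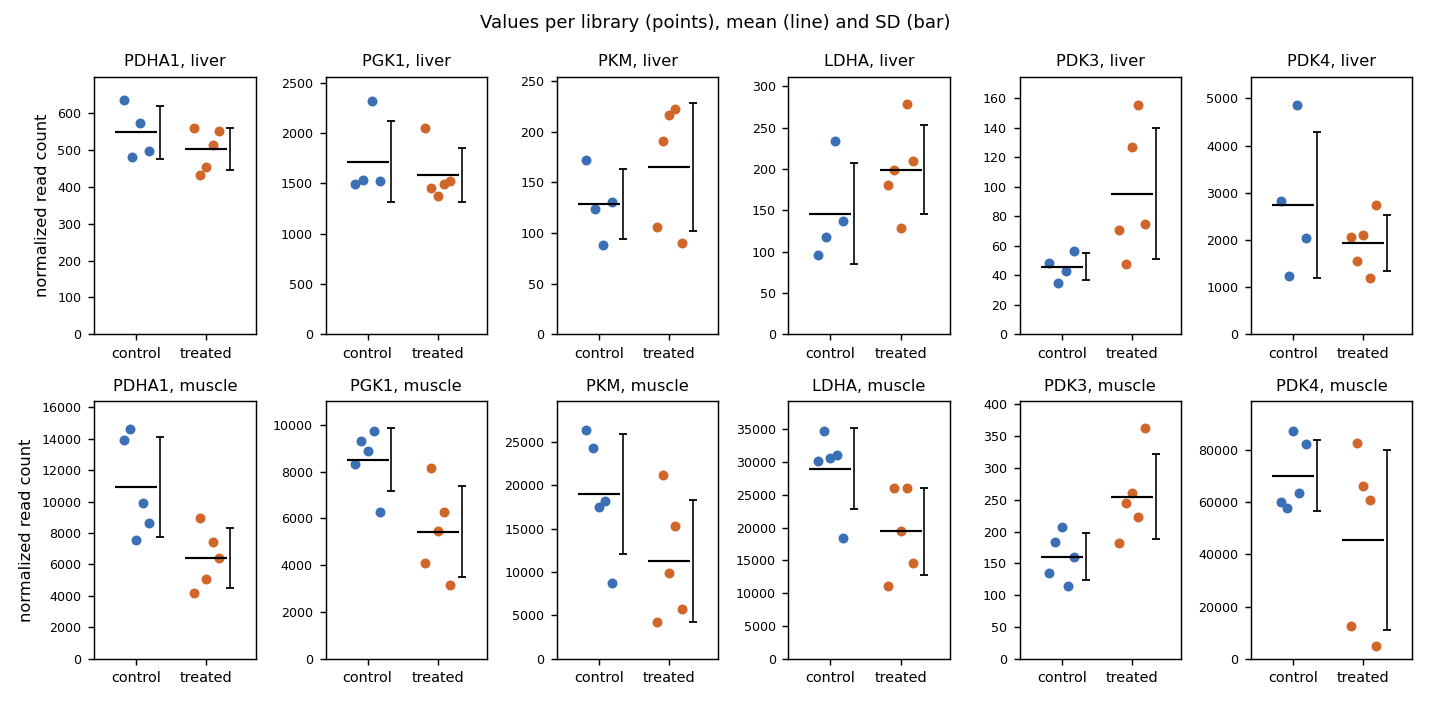
Normalized read counts (y axis, linear from 0) of PDHA1, PGK1, PKM, LDHA, PDK3 and PDK4 in each control and treated library (x axis), liver in the upper and muscle in the lower row. Points are libraries, lines are means and bars are SD; in muscle PDK4 the treated sheep 48 (12616) and 255 (4922) stand below the other 8 libraries.

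The same 2 treated sheep, 48 and 255, gave the lowest muscle value for 18 of the 31 members, 15 in sheep 48 and 3 in sheep 255. For 13 members they were the lowest pair among the 10 libraries: GPI, PFKFB4, ALDOA, TPI1, GAPDH, PGK1, PGAM2, ENO1, ENO3, PKM, LDHA, PDK2 and PDK4. PDK3 and HK2 went the other way in sheep 255, which had the highest muscle value of both (362 and 320). Without these 2 libraries, a setting added after the values were seen, 21 of 31 estimates lay below 0. The members' median was then -0.17, against -0.0048 for all genes. The share of all genes below 0 was not computed in that setting. At an unadjusted p under 0.05 limma marked 4 members with lower and 2 with higher treated means. In the same setting it marked 16.2% of all 12966 genes, counting both directions. PDHA1 then had a log2 fold change of -0.60, PGK1 of -0.37, PKM of -0.27, LDHA of -0.26 and PDK3 of 0.62. PDHA1 and PDK3 thus stayed nearer to their estimates over all 10 libraries than PKM and LDHA did.

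**Figure D5:**
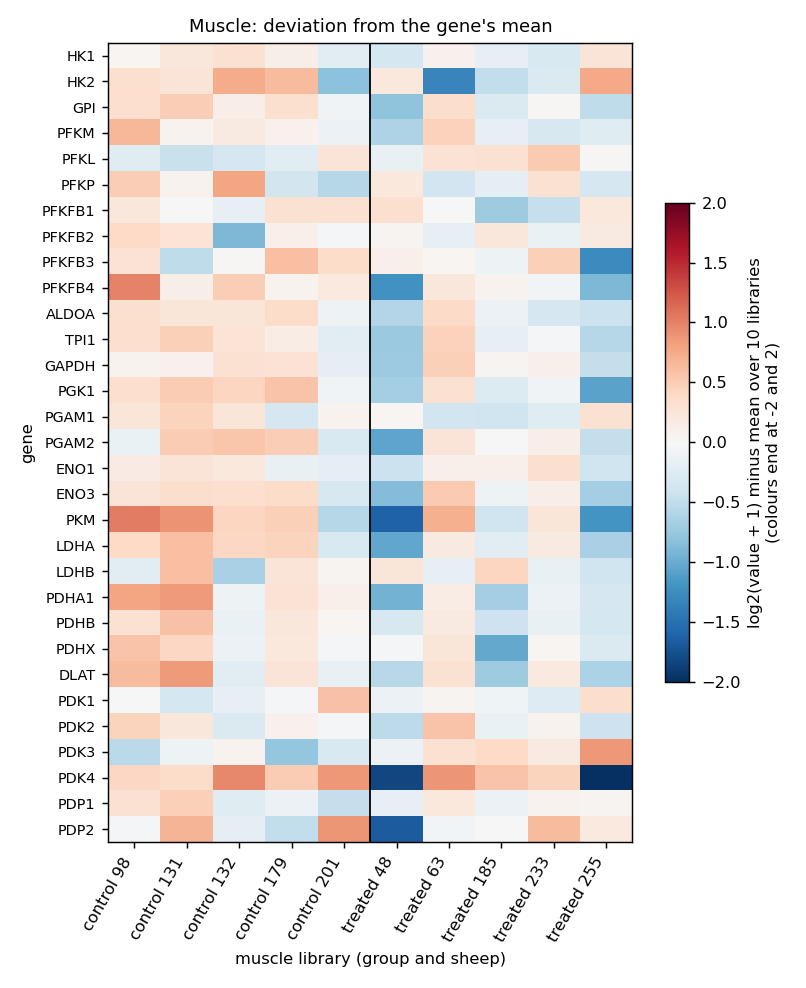
Deviation of log2(value + 1) from the gene's mean over 10 muscle libraries (colour, ending at -2 and 2), for 31 members (rows) in 5 control and 5 treated sheep (columns, split by the black line). Treated sheep 48 and 255 show blue through most of glycolysis and deep blue for PDK4, while PDK3 is redder in the treated columns.

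Summed fast fibre and general muscle fibre genes were lowest in treated sheep 48 and 255, while summed slow fibre genes were not. The summed value of 7 of 8 listed fast fibre genes was 1062850 to 1325660 in control muscle and 493675 to 1092110 in treated muscle, with 493675 in sheep 48, 793936 in 255 and 797074 in 185. The sum of 5 general muscle fibre genes was 741829 to 851089 in controls and 586313 to 828251 in treated sheep, the lowest in sheep 48 (586313) and 255 (609202). The sum of 6 of 7 listed slow fibre genes was 62620 to 198338 and 87698 to 119248, so the groups overlapped there. Adipocyte genes (5 genes) summed to 569 to 1810 in control and 166 to 567 in treated muscle. These ranges nearly touched, at 568.7 in control sheep 98 and 567.0 in treated sheep 255. Leukocyte genes (6 genes, with MARCO at 0 in the treated group) summed to 279 to 373 and 322 to 627. None of the fast fibre, slow fibre or adipocyte genes was at 0 throughout either muscle group. The part of fibre and cell type markers in the treatment results was not tested.

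The third comparison was the same contrast in liver. None of the 30 members tested passed an adjusted p under 0.05 (4 control and 5 treated libraries, lowest limma adjusted p 0.9995), by limma, edgeR or DESeq2, where the tools called 0.00733%, 0.00733% and 0.235% of 13640 genes. Limma marked 1 member at an unadjusted p under 0.05, PDK3 with a higher treated mean, and edgeR and DESeq2 also marked 1 each. The background at that level was 2.17% of genes lower and 1.82% higher in limma, 4.25% of genes in edgeR and 5.04% in DESeq2. Estimates lay below 0 for 19 of 30, against 49.6% of all genes, and the members' median was -0.12 against 0.0032 for all genes. The ranges of the groups overlapped for all 30, where 1.54% of all genes had ranges apart.

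PDK3 was 48.5, 34.9, 43.1 and 56.8 in the livers of control sheep 98, 131, 179 and 201, and 70.8, 47.8, 127, 155 and 74.8 in those of treated sheep 48, 63, 185, 233 and 255. It averaged 45.8 ± 9.20 over the control livers (SD, n = 4) and 95.1 ± 44.3 over the treated ones (SD, n = 5), a log2 fold change of 0.93 ± 0.36 (limma adjusted p = 0.9995, DESeq2 adjusted p = 0.432). The livers of 4 treated sheep exceeded every control and that of sheep 63 did not. PDK3 was thus above the control mean in all 5 treated sheep in both tissues, at levels of 36 to 145 reads per liver library. In each tissue alone, 9.77% of all genes in muscle and 5.19% in liver met that rule. The share that met it in both was not computed. The 5 treated sheep are the same animals in both tissues, so the tissues are not independent.

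LDHB had the next smallest p in liver. It was 4412, 4959, 7665 and 5765 in control and 5726, 4769, 1860, 2494 and 3862 in treated livers, a log2 fold change of -0.69 ± 0.34 (limma adjusted p = 0.9995). LDHA was 96.4, 117, 234 and 137 in control and 180, 199, 129, 278 and 209 in treated livers, 0.48 ± 0.31 (limma adjusted p = 0.9995). Neither gene's groups were apart, but their ratio was: LDHB/LDHA on the log2 scale was 5.03 to 5.50 in control livers and 3.16 to 4.98 in treated livers, with means of 5.33 ± 0.21 (SD, n = 4) and 4.15 ± 0.70 (SD, n = 5). This was the only one of 24 pair and tissue combinations in which control and treated libraries did not overlap. It was singled out after its values were seen, so no test is given. The gap was narrow, between control sheep 179 (5.03) and treated sheep 48 (4.98). The share of other gene pairs with groups apart was not computed, so this count does not set the pair off from others. In muscle the same ratio was -5.34 to -3.90 in control and -4.62 to -2.99 in treated libraries, which overlapped.

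PDK2, the widely expressed kinase, was 1259, 882, 507 and 1551 in control livers and 587, 688, 890, 505 and 680 in treated livers, a log2 fold change of -0.55 ± 0.32. ALDOA was 1368, 950, 741 and 1467 in control and 693, 849, 1158, 812 and 573 in treated livers, -0.46 ± 0.28. In both genes control sheep 131 and 179 lay inside the treated range. PKLR had means of 368 ± 149 and 263 ± 46.1, and PDK4 of 2742 ± 1556 and 1933 ± 592, each with all 5 treated livers below the control mean. That held for 6 of 30 members (GPI, TPI1, ENO1, PKLR, PDK2 and PDK4), and PDK3 alone had all 5 above it, where 7.97% of all genes lay wholly below and 5.19% wholly above the control mean. The 4 pyruvate dehydrogenase subunits in liver had log2 fold changes from -0.16 (PDHB) to 0.18 (PDHX).

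As a share of all reads assigned to genes, the 32 members made up 0.219% to 0.249% in control and 0.159% to 0.199% in treated livers. Those shares did not overlap, while the summed normalized values, 22549 to 30218 and 18581 to 24020, did. Genes with many reads weigh most in such totals. LDHB, with the highest mean count of the members in liver, averaged 5700 in control and 3742 in treated livers. The members' median log2 fold change in liver was -0.12, with 19 of 30 estimates below 0. How often other gene sets part in this way was not computed. In muscle the members' read share was 2.96% to 3.80% in control and 1.93% to 3.89% in treated libraries, with the lowest values in sheep 255 (1.93%) and 48 (2.14%). Summed hepatocyte genes (4 genes) were 722706 to 1581160 in control and 732815 to 1908610 in treated livers. Leukocyte genes (6 genes) summed to 825 to 2088 and 989 to 2324 in the 2 groups of livers, overlapping as the hepatocyte genes did. The part of these transcripts in the read shares was not tested.

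Whether the treatment effect itself differed between muscle and liver was tested on 29 members measured in both. None passed an adjusted p under 0.05 by limma, edgeR or DESeq2, where the tools called 0.00855%, 0.00855% and 0.094% of 11697 genes. At an unadjusted p under 0.05 limma marked 3 members with a lower effect in muscle and 0 with a higher one. Of all genes, 2.34% and 2.56% were so marked. edgeR marked 1 member and DESeq2 3, beside 5.22% and 5.94% of all genes. LDHA differed by -1.10 ± 0.39 (limma adjusted p = 0.897), PKM by -1.21 ± 0.56 (limma adjusted p = 0.973) and PDHA1 by -0.65 ± 0.31 (limma adjusted p = 0.973). The liver values of PKM were 172, 124, 87.9 and 130 in control and 106, 191, 216, 223 and 89.9 in treated sheep, and those of PDHA1 634, 480, 573 and 497 and then 558, 431, 453, 514 and 550. Those of PGK1 were 1493, 1536, 2315 and 1522 and then 2049.5, 1458, 1380, 1495 and 1521. PDHX was 134, 150, 194 and 118 in control and 176, 137, 143, 172 and 210 in treated livers, and control and treated sheep overlapped in each of the 4 genes. Both LDHA and PKM had estimates above 0 in liver (0.48 and 0.30) and below 0 in muscle. Without muscle libraries 48 and 255, 0 members had an unadjusted limma p under 0.05, beside 5.25% of all genes.

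Other genes around the pathway were read from a fixed list of 37, of which 35 were matched by symbol. Muscle was higher for 13 of 28 tested and liver for 12, close to the 38.5% and 40.7% of all genes. FBP1, the gluconeogenic bisphosphatase, had a mean of 9115 in liver and 20.2 in muscle, on the rescaled counts. SLC16A3, a lactate exporter, ran the opposite way, at 14.4 and 796.

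None of these other genes passed after adjustment for treatment in either tissue or for the difference between tissues, by limma. In muscle, 7 of 27 had an unadjusted limma p under 0.05, 6 with lower treated means (DLD, TIGAR, PGM1, SLC16A3, MLXIP and FOXO1) and LDHD with a higher one, beside 7% and 7.37% of all genes. DLD, the E3 subunit of the pyruvate dehydrogenase complex, averaged 6424 ± 1450 in control muscle and 4429 ± 1107 with treatment (SD, n = 5 each), a log2 fold change of -0.54 ± 0.19 (limma adjusted p = 0.2503), below 0 like the 4 member subunits. In liver 2 of 28 had an unadjusted p under 0.05, 1 lower and 1 higher, beside 2.17% and 1.82% of all genes, and both are lactate and pyruvate transporters: SLC16A1 had 3385 ± 1754 in control and 1716 ± 467 in treated livers, and SLC16A7 531 ± 278 and 988 ± 343, each with a limma adjusted p of 0.9995.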

How the data were processed

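Total RNA of 9 liver and 10 muscle samples was sequenced after TruSeq library preparation, per the labels' protocols. Trimmomatic, STAR and featureCounts 1.6.1 are named in the submitters' processing notes; the sources used here give no genome build, annotation or strand setting. The deposited values are normalized counts per gene on a signal scale, 1 column per library; dividing by the value of 1 read gave whole reads for 100% of values within 0.01 read, with factors equal to a median of ratios within each tissue.

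Treatment was tested per tissue, and its difference between tissues over all libraries, with limma 3.58.1 (mean-variance trend) in R 4.3.3 on log2(value + 1), over genes with a mean of at least 10 and a Benjamini-Hochberg threshold of 0.05; fold changes on this scale understate changes of low genes. For muscle against liver the recovered reads were rescaled by median of ratios over all 19 libraries. edgeR 4.0.16 quasi-likelihood and DESeq2 1.42.0 on the recovered reads were alternatives, run because the deposited values are not counts, with other pseudocounts, filters, scalings, a sheep block and each library left out. The steps were tested on simulated data. No 2 of 36 replicate pairs agreed within sampling noise (chi-square per degree of freedom at least 19.4).

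The members, lists and rules were chosen with earlier results of these data known. Values in every library are given for the 5 members of smallest p per treatment comparison, and as lowest, median and highest for the isoform of each family with the higher normalized count in a tissue where that isoform differed, a choice of what to print that takes no account of transcript length; PDK4 and the LDHB/LDHA ratio were added after their values were seen. Sheep numbers pair the tissues: 9 sheep gave both, and the correlation of their deviations from the group means across genes was 0.103 to 0.349 (median 0.177). All 33 symbols matched RefSeq names (assembly ARS-UI_Ramb_v3.0).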

Additional observations from a re-analysis of the deposited data

Results flagged for a closer look

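Of 122 gene and group combinations of 4 or 5 libraries, 9 (7.38%) had 1 library far from the others by Dixon's 95% criterion. That criterion marks about 5% of independent samples with normally distributed values. Here the values were not on a log scale and the genes share libraries, so 7.38% cannot be read as an excess over 5%. In liver, PFKM was 130 in control sheep 179 (next 64.9) and 268 in treated sheep 255 (next 87.3). PFKL was 566 in treated liver 185 (next 291). PGK1 was 2315 in control liver 179 (next 1536) and 2049.5 in treated liver 48 (next 1521). PDK1 was 593 in treated liver 255 (next 210). Without sheep 255 the treated liver mean of PFKM went from 104 to 62.7 and that of PDK1 from 252 to 167.

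The other 3 concern control muscle 201, which had PFKL at 167 (next 121), ENO3 at 22192 (next 33006) and LDHA at 18458 (next 30142). This library thus had a higher PFKL and lower ENO3 and LDHA than the other 4 controls, and for LDHA it was the only control inside the treated range.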

How the results depend on the processing

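In all settings run, 0 members passed the adjusted threshold for treatment in liver, in muscle or for their difference. Counts at an unadjusted p under 0.05 moved, and so did the share of all genes at that level. In liver (1 member) array weights gave 6, 1 fit of all libraries gave 2 and leaving out 1 library gave 0 to 5, with 5 without control 179 and 0 without control 131 or treated 233. In muscle (10) leaving out 1 library gave 4 to 15, with 4 without control 98 or 131, 5 without treated 48, 6 without control 179 or treated 255, and 15 without treated 63; without treated 48 and 255 together it gave 6, and PDK4 turned to 0.0039. For the difference (3) edgeR and TMM scaling each gave 1, leaving out both libraries gave 0, and leaving out 1 library gave 1 to 5. Sheep as a replicate block left that count at 3 and the tissue count at 31, and changed no other call. Unadjusted p was under 0.05 for 3.99% of all liver genes in the main fit, 11.1% with array weights and 8.49% without control 179. In muscle that share was 14.4% in the main fit and 11.1% to 17.3% with 1 library left out. For the difference it was 4.9% in the main fit and 3.69% to 14.6% with 1 library left out.

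Between tissues 31 members were called, 29 in edgeR and DESeq2 and 32 with scaling to total reads alone; PDHB and PFKFB1 also lost their calls without several single libraries. Adding 10 in place of 1 before taking ratios changed the shift from liver to muscle of HK1/HK2 from -3.07 to -1.16 and ended its separation; PGAM2/PGAM1 went from 13.02 to 10.96, PKLR/PKM from -13.65 to -11.18 and PDP2/PDP1 from -6.12 to -5.44, with the tissues still apart. Low counts limit HK2 and PGAM2 in liver, and PKLR and PDP2 in muscle.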
